A study of Mus musculus with 22 samples.

Results

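Lipopolysaccharide (LPS) and cannabidiol (CBD) were crossed in aged mice that had been exposed to Gulf War (GW) chemicals, and the question asked here is whether the response of their microglia to LPS differed between mice given CBD and mice given its vehicle. For each gene this is a difference of differences on the log2 scale. The LPS response with CBD (GW-CBD-LPS over GW-CBD-PBS) was set against the LPS response without CBD (GW-LPS over GW-PBS), with the second subtracted from the first. A positive value means that expression after LPS stood higher, relative to PBS, in mice with CBD than in mice without it. Of the 22 libraries of the series, 14 enter this difference and were taken by their group labels: 4 GW-CBD-LPS, 3 GW-CBD-PBS, 3 GW-LPS and 4 GW-PBS libraries. All of these mice were male C57BL/6J, were injected with pyridostigmine bromide (0.7 mg/kg) and permethrin (200 mg/kg) daily for 10 days from 10 weeks of age, and were then aged to 17.5 months. CBD was injected at 30 mg/kg daily for 28 days and then every 2 days for 2 weeks, and the GW-LPS and GW-PBS mice received vehicle on the same plan. LPS (0.33 mg/kg) or PBS followed, and brains were taken 24 hours later. Microglia were sorted as live CD45mid, CD11b+ and CD11a- cells. The labels do not say that each library is 1 mouse, and the p-values cover only differences among libraries, which may be technical. The other 8 libraries, from unexposed mice given LPS or PBS, shared the model fit and gave an outside list of LPS genes. CBD without the exposure was not analysed here.

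LPS is a cell wall component of Gram-negative bacteria that Toll-like receptor 4 recognises and that signals through the adaptor MyD88. Microglia, the resident macrophages of the brain, answer it by lowering genes of their surveying, homeostatic state and raising cytokines, chemokines, interferon-induced genes and receptors for pathogens and complement. CBD is a non-intoxicating cannabinoid of the hemp plant that binds several receptors, channels and enzymes.

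Library totals of the 14 libraries ran from 28676930 to 40458326 counts, and 13906 to 14831 genes had at least 10 counts. The 12 markers of microglia were found in every library. In CPM (counts scaled to a common, adjusted library total) they summed to 59360 to 69140 in GW-CBD-LPS and 59360 to 64410 in GW-CBD-PBS libraries. They summed to 46940 to 57380 CPM in GW-LPS and 61680 to 74640 CPM in GW-PBS libraries. Markers of T and NK cells summed to 1.05 to 9.75 CPM over all 14 libraries, with Ncr1 at 0 in 13 of them. Erythroid markers, haemoglobin chains above all, summed to 60.3 to 396 CPM in GW-CBD-LPS libraries, 204 to 366 CPM in GW-CBD-PBS libraries, 63.9 to 130 CPM in GW-LPS libraries and 251 to 1766 CPM in GW-PBS libraries. Markers of B cells summed to 965 to 1166 CPM in GW-CBD-LPS libraries, 1020 to 1210 CPM in GW-CBD-PBS libraries, 269.5 to 742 CPM in GW-LPS libraries and 934 to 1171 CPM in GW-PBS libraries. Endothelial and pericyte markers summed to 36.0 to 58.7 CPM in GW-CBD-LPS, 36.6 to 55.9 CPM in GW-CBD-PBS, 23.9 to 33.6 CPM in GW-LPS and 32.1 to 66.3 CPM in GW-PBS libraries. Oligodendrocyte markers summed to 312 to 389 CPM in GW-CBD-LPS, 321 to 346 CPM in GW-CBD-PBS, 241 to 289 CPM in GW-LPS and 283 to 481 CPM in GW-PBS libraries. Neuron markers summed to at most 10.7 CPM over all 14 libraries. Border-associated macrophage markers summed to 674 to 1083 CPM in GW-CBD-LPS and 697 to 967 CPM in GW-CBD-PBS libraries. They summed to 932 to 1240 CPM in GW-LPS and 602 to 913 CPM in GW-PBS libraries. Choroid plexus and ependyma markers summed to 7.12 to 26.2, 13.8 to 41.6, 19.5 to 203 and 27.1 to 480 CPM in the same order. Blood monocyte markers summed to 68.2 to 336 CPM over all 14 libraries. The median difference of the LPS responses was 3.70 for erythroid markers (7 of 7 genes positive, 5 at an unadjusted p under 0.05), 1.96 for endothelial cells and pericytes (9 of 10, 4 at that p), 1.72 for neurons (8 of 8, 2 at that p), 1.15 for oligodendrocytes (10 of 10, 4 at that p) and 0.91 for astrocytes (8 of 10, 3 at that p), with none called. Over all genes 53.1% were positive and 9.64% were higher at that p. The median LPS value was -0.0025 with CBD and -3.23 without it for erythroid markers. It was 0.88 and -1.14 for endothelial and pericyte, and 0.26 and -0.79 for oligodendrocyte markers. The median for neutrophil markers was -1.75, which turned positive without GW-CBD-PBS replicate 3 or GW-LPS replicate 3. For B cells it was 0.09, and ran from -0.58 without GW-CBD-LPS replicate 3 to 0.62 without GW-LPS replicate 3. Of the 8 B cell markers, 4 were positive and 4 negative, with 3 higher at an unadjusted p under 0.05. LPS without CBD lowered 3 of the 8 (5.07% of all genes). The median difference was -0.19 for border-associated macrophage, 0.37 for blood monocyte and 0.26 for choroid plexus and ependyma markers. All 3 changed sign as single libraries were left out. Of the 12 border-associated macrophage markers, LPS without CBD raised 5 and lowered 2 (4.45% and 5.07% of all genes). For LPS with CBD none of the 12 was called, where 0.417% of all genes were. Other cell types are named here only as marker lists. In sorted bulk RNA fewer cells of a type and less RNA per cell cannot be told apart. GW-PBS replicate 1 stood apart on neutrophil markers (2328 CPM, against 447 to 1096 in the other 13 libraries), and it and GW-PBS replicate 3 on erythroid markers (1766 and 1379 CPM). Other libraries stood apart on single gene lists and are named there. The part of these markers and libraries in the results was not tested beyond leaving out each library in turn.

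With CBD, 69 of 16554 genes tested (0.417%) changed after LPS, 65 of them higher (0.393%) and 4 lower (0.0242%). Genes of DNA replication made up 18 of the 65. Without CBD, 1577 genes (9.53%) changed, 737 higher (4.45%) and 840 lower (5.07%), among them the microglial receptors P2ry12, Gpr34 and Trem2, which fell. The difference of the responses itself was called for 3 genes (0.0181%), of which 2 were higher (0.0121%) and 1 was lower (0.00604%). These are Benjamini-Hochberg adjusted p-values under 0.05 from edgeR's quasi-likelihood test, which is the source of every adjusted p below. Its median standard error (SE) was 0.40 on the log2 scale, so a gene of typical spread had a 95% interval of 0.83 to either side. At an unadjusted p under 0.05, 2540 genes (15.3%) differed, 1595 higher (9.64%) and 945 lower (5.71%), and 53.1% of all genes had a positive difference, with a median of 0.05. DESeq2 called 381 genes for the difference, 244 higher and 137 lower, and limma with quality weights for the libraries called 2287.

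The counts of calls rested on single libraries. For LPS with CBD, leaving out replicate 3 of GW-CBD-LPS gave 260 genes and leaving out replicate 3 of GW-LPS gave 106. Leaving out any 1 GW-CBD-PBS library gave 0, and leaving out replicates 1 or 4 of GW-CBD-LPS gave 4. It was 10 to 45 when replicate 2 of GW-CBD-LPS, replicates 2 or 4 of GW-LPS, or replicates 2, 3 or 4 of GW-PBS were left out. For LPS without CBD the count was 733 and 889 when replicates 4 and 3 of GW-LPS were left out in turn, and 956 when replicate 1 of GW-PBS was.

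The LPS responses with and without CBD share no library and can be set side by side. Over the 16554 genes their log2 fold changes had a Pearson correlation of 0.19 and a Spearman correlation of 0.15, a description across genes that are not independent. The fold changes had an SD of 0.78 with CBD and 0.96 without it. Of the genes called higher, 18 were called in both responses, which is 27.7% of those called with CBD and 2.44% of those called without it. No gene was called in opposite directions, and 4 were called lower in both.

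**Figure D1:**
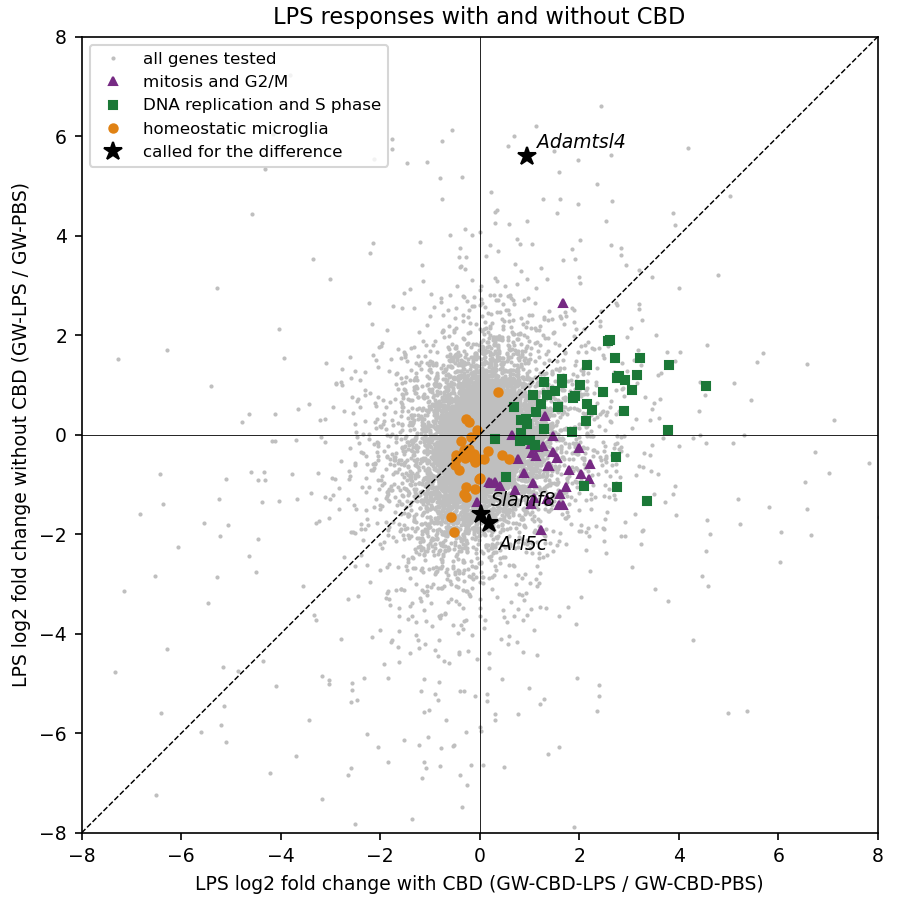
Each point is a gene, with its LPS log2 fold change with CBD on the x axis and without CBD on the y axis. Triangles, squares and circles mark lists of mitosis, DNA replication and homeostatic genes, stars mark the 3 genes called for the difference, and the dashed line marks equal responses. All but 1 of the marked cell cycle genes lie right of the line, and 7 genes lie outside the axes of 8 log2 units.

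Adamtsl4, which codes for a secreted matrix protein that binds fibrillin microfibrils, had the largest difference among the 3 called genes. It stood at 2.87, 6.50, 1.75 and 3.53 CPM in GW-CBD-LPS libraries and at 1.98, 1.95 and 1.76 CPM in GW-CBD-PBS libraries. In GW-LPS libraries it stood at 23.4, 142 and 48.7 CPM, against 1.23, 1.64, 1.23 and 1.76 CPM in GW-PBS libraries. Every GW-LPS library was above all others, while the GW-CBD-LPS and GW-CBD-PBS libraries overlapped. The gene lies at chr3:95676201-95687917, - strand (GRCm38). LPS raised it by 5.60 ± 0.56 (log2, SE) without CBD (adjusted p 2.26e-05), its LPS value with CBD was 0.95 ± 0.53 (adjusted p 0.537), and the difference was -4.65 ± 0.74 (adjusted p 0.0386). Its LPS fold change in unexposed mice was 6.28 (log2).

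Arl5c, a member of the ARF-like small GTPases (chr11:97989578-97996181, - strand), and Slamf8, a receptor of the SLAM family on myeloid cells (chr1:172581758-172590568, - strand), differed the other way. Arl5c had 21.4, 17.8, 20.97 and 19.2 CPM in GW-CBD-LPS libraries and 18.7, 17.4 and 16.3 CPM in GW-CBD-PBS libraries. It had 9.89, 5.63 and 6.71 CPM in GW-LPS libraries, against 34.6, 25.7, 22.3 and 19.1 CPM in GW-PBS libraries. Without CBD the LPS libraries were all below the PBS libraries, and with CBD they overlapped. LPS lowered Arl5c without CBD, where it fell by 1.78 ± 0.24 on the log2 scale (adjusted p 0.000103), its value with CBD was 0.18 ± 0.22, and the difference was 1.96 ± 0.32 (adjusted p 0.0386). Slamf8 had 51.4, 35.7, 56.9 and 43.4 CPM in GW-CBD-LPS libraries and 47.2, 50.5 and 40.4 CPM in GW-CBD-PBS libraries. It had 25.6, 19.6 and 21.1 CPM in GW-LPS libraries, against 68.6, 64.55, 84.4 and 48.7 CPM in GW-PBS libraries. The GW-LPS libraries were again below all others. Its LPS value was 0.03 ± 0.19 with CBD, it fell by 1.59 ± 0.20 without CBD (adjusted p 8.18e-05), and the difference was 1.61 ± 0.27 (adjusted p 0.0386).

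The calls of Adamtsl4, Arl5c and Slamf8 remained without GW-CBD-LPS replicate 2, GW-LPS replicate 2, GW-PBS replicate 2 or GW-PBS replicate 4, and ended without any 1 of the other 10 libraries, with adjusted p-values up to 0.149. Leaving libraries out moved the difference of Adamtsl4 between -5.08 and -3.69, that of Arl5c between 1.78 and 2.22 and that of Slamf8 between 1.48 and 1.74. Among the 14 libraries fitted without the unexposed mice none of the 3 was called (adjusted p 0.0531 or above).

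**Figure D2:**
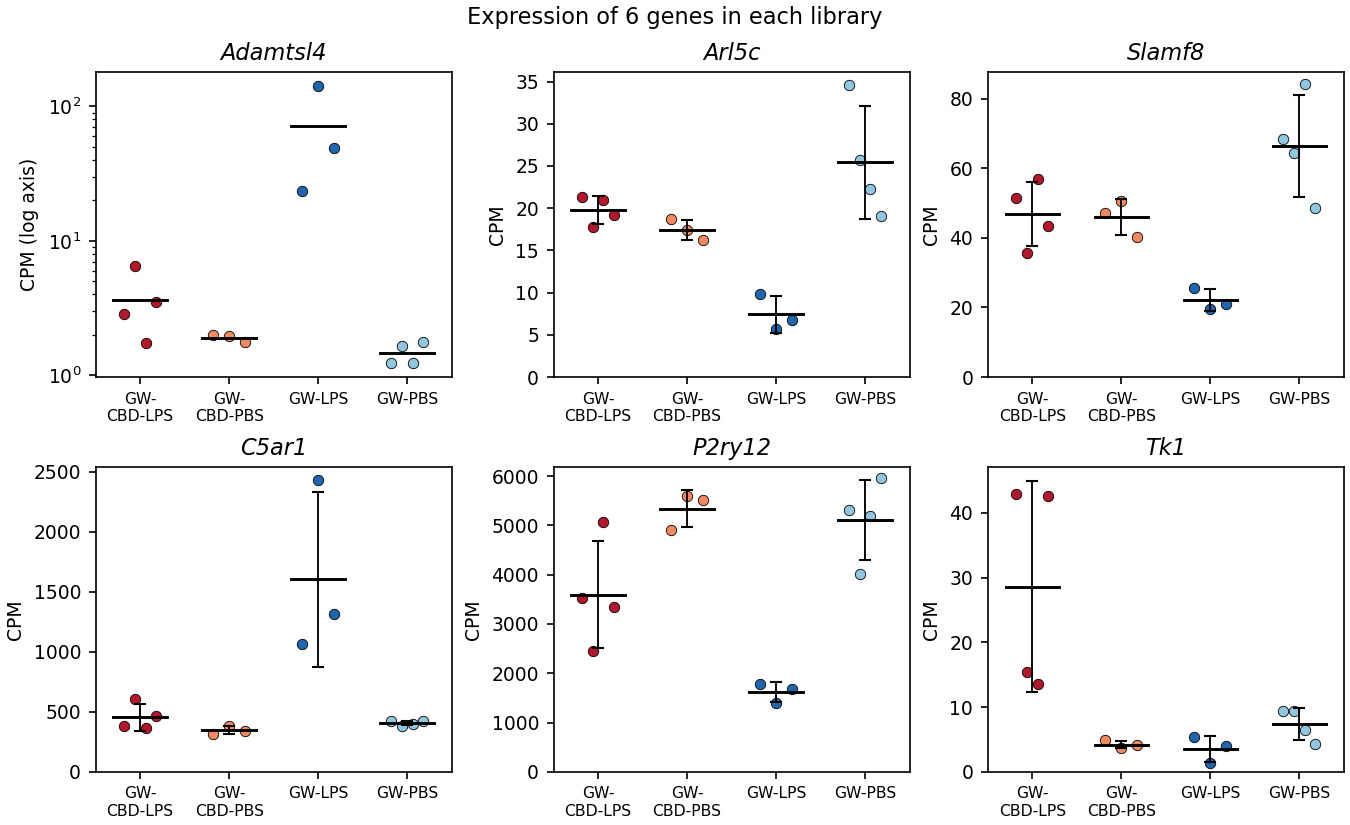
Expression of Adamtsl4, Arl5c, Slamf8, C5ar1, P2ry12 and Tk1 in CPM (log axis for Adamtsl4) in each library, with points for libraries, a line at the mean and, on linear axes, bars of 1 SD. GW-LPS libraries stand above all others for Adamtsl4 and C5ar1 and below all others for Arl5c, Slamf8 and P2ry12, and GW-CBD-LPS libraries stand above all others for Tk1.

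The next genes in each direction were taken by unadjusted p, which favours groups that lie apart, so their layout is a description. The share of all genes with such a layout was not counted. In all 17 the GW-LPS libraries did not overlap the GW-PBS libraries, and with CBD the LPS and PBS libraries overlapped in all but Tspan33, Rab32 and Tada2b. They did not pass the test for the difference, with adjusted p-values from 0.0561 to 0.0617. The higher ones were Pacsin1 (membrane bending in endocytosis), Cdc42ep1 (an effector of the GTPase Cdc42), Oxct1 (use of ketone bodies), Thrsp (lipid synthesis), Cyb561a3 (a lysosomal ferric reductase), Ramp1 (part of the receptor for the peptide CGRP), Tspan33 (a tetraspanin) and Afmid (tryptophan breakdown to kynurenine). Their differences ran from 0.92 for Oxct1 to 2.68 for Pacsin1. Ramp1 had 44.8, 16.6, 75.1 and 49.3 CPM in GW-CBD-LPS libraries and 51.4, 71.2 and 49.6 CPM in GW-CBD-PBS libraries. Ramp1 had 16.3, 9.42 and 8.77 CPM in GW-LPS libraries, against 142, 60.1, 82.3 and 67.15 CPM in GW-PBS libraries. All GW-LPS libraries were below all GW-PBS libraries, and the CBD groups overlapped. The LPS value of Ramp1 was -0.31 ± 0.35 with CBD, it fell by 2.93 ± 0.40 without CBD, and the difference was 2.63 ± 0.52.

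The lower ones were C5ar1 (receptor for complement fragment C5a), Myd88 (the adaptor of Toll-like receptors), Il4ra (receptor chain for interleukins 4 and 13), Alox5 (5-lipoxygenase, the first enzyme of leukotriene synthesis), Rab32 (a GTPase of lysosome-related organelles), Gcnt2 (branching of glycans), Pgs1 (cardiolipin synthesis), Tha1 (a threonine aldolase) and Tada2b (a subunit of a histone acetylation complex). C5ar1 had 378, 607, 362 and 466 CPM in GW-CBD-LPS libraries and 314, 381 and 340 CPM in GW-CBD-PBS libraries. C5ar1 had 1067, 2432 and 1310 CPM in GW-LPS libraries, against 422, 384, 396 and 421 CPM in GW-PBS libraries. Every GW-LPS library was above every other library, and the GW-CBD-LPS and GW-CBD-PBS libraries overlapped. LPS raised C5ar1 by 1.98 ± 0.23 without CBD (adjusted p 5.59e-05), its value with CBD was 0.39 ± 0.23 (adjusted p 0.565), and the difference was -1.59 ± 0.32 (adjusted p 0.0617). Compared directly after LPS, C5ar1 was lower in GW-CBD-LPS than in GW-LPS libraries, with a log2 fold change of -1.82 ± 0.23 (adjusted p 0.000505).

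Myd88 varied little among libraries and showed the same layout on a small scale. It had 123, 128, 129 and 132 CPM in GW-CBD-LPS libraries and 119, 129 and 128 CPM in GW-CBD-PBS libraries. It had 188, 212 and 224 CPM in GW-LPS libraries, against 131, 117, 129 and 135 CPM in GW-PBS libraries. The GW-LPS libraries were above all others, and the other 3 groups lay within a narrow range. Its difference was -0.66 ± 0.13 (adjusted p 0.0617). Alox5 had a difference of -1.45 ± 0.26 and Il4ra one of -1.51 ± 0.31. Tada2b had another layout, with 25.1, 25.5, 17.6 and 4.54 CPM in GW-CBD-LPS and 30.3, 28.0 and 26.5 CPM in GW-CBD-PBS libraries, against 30.6, 50.9 and 33.1 CPM in GW-LPS and 6.81, 8.90, 4.62 and 6.64 CPM in GW-PBS libraries. There the GW-PBS libraries were the low ones, together with GW-CBD-LPS replicate 4.

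CBD alone and CBD after LPS give the same difference from the other side. After LPS, 382 genes (2.31%) differed between GW-CBD-LPS and GW-LPS, 176 higher (1.06%) and 206 lower (1.24%) with CBD. Without LPS, edgeR called 0 genes between GW-CBD-PBS and GW-PBS (0%), with 1569 at an unadjusted p under 0.05 (9.48%). DESeq2 called 0 there and limma with quality weights 217. The count after LPS ran from 97 without GW-LPS replicate 3 to 532 without GW-CBD-LPS replicate 2, and was 158 without GW-CBD-LPS replicate 1, 190 without GW-CBD-LPS replicate 3 and 152 without GW-LPS replicate 4.

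LPS genes of unexposed mice, taken from 8 libraries outside the difference, had smaller median LPS values with CBD than without it, in both directions. In unexposed mice LPS raised 1785 genes (10.8%) and lowered 1593 (9.62%), 20.4% of genes in all. Of the lowered genes the median LPS value was -0.24 (log2) with CBD and -0.65 without it, and the difference was positive for 1216 genes (76.3%, against 53.1% of all genes) with a median of 0.38. Of the raised genes the median was 0.22 with CBD and 0.35 without it, and the difference was positive for 721 genes (40.4%) with a median of -0.13. Without the 3 libraries with raised neutrophil markers these medians were 0.47 over 1160 lowered genes and -0.25 over 1156 raised genes.

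A score for each library, the mean log2 CPM of the raised genes minus that of the lowered ones, gives these responses per library. It was 1.41, 1.70, 1.10 and 1.77 in GW-CBD-LPS libraries (mean 1.496 ± 0.31, SD, n = 4) and 0.90, 0.97 and 0.92 in GW-CBD-PBS libraries (0.93 ± 0.04, n = 3). It was 2.30, 2.49 and 2.42 in GW-LPS libraries (2.40 ± 0.10, n = 3), against 1.24, 1.02, 1.07 and 1.14 in GW-PBS libraries (1.12 ± 0.09, n = 4). All GW-CBD-LPS libraries lay below all GW-LPS libraries, and GW-CBD-LPS replicate 3, the lowest of its group, lay within the range of GW-PBS libraries.

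**Figure D3:**
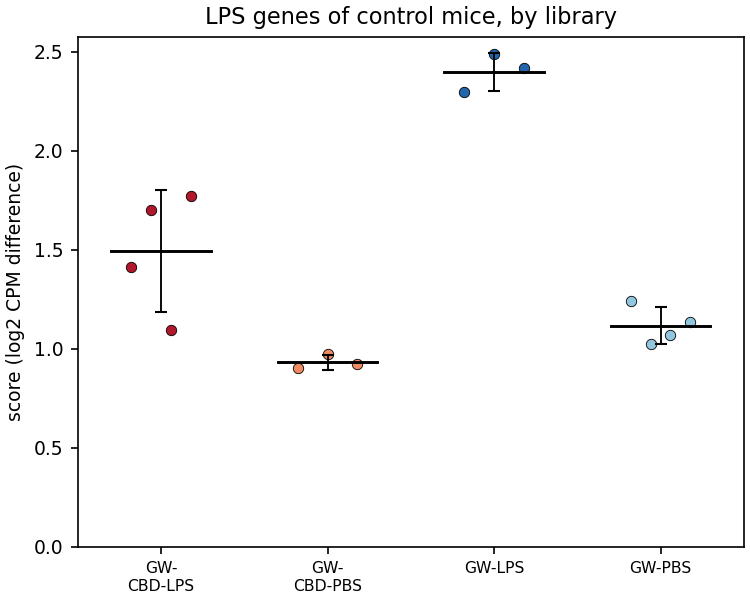
Score of the LPS genes of unexposed mice (mean log2 CPM of raised minus lowered genes, y axis) in each library of the 4 groups, with points for libraries, a line at the mean and bars of 1 SD. GW-CBD-LPS libraries lie between 1.10 and 1.77, below the GW-LPS libraries at 2.30 to 2.49.

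Many homeostatic genes fell after LPS without CBD. For LPS with CBD none of those listed was called, where 0.0242% of all genes were called lower. Of 30 such genes, 14 fell and none rose after LPS without CBD, where 5.07% of all genes fell and 4.45% rose. Among the LPS libraries 5 of the 30 stood higher with CBD than without it, against 1.06% of all genes. The median LPS value was -0.22 with CBD and -0.48 without it. With CBD 25 of the 30 LPS values were negative, as were 8265 of all 16554. At an unadjusted p under 0.05, LPS with CBD had 7 of the 30 lower and 1 higher. Of all 16554 genes 576 were lower and 1245 higher there. The difference was positive for 22 genes (73.3%, against 53.1% of all genes), with a median of 0.31 (0.05 over all genes). At an unadjusted p under 0.05, 10 were higher (33.3%, against 9.64% of all genes) and 1 was lower (3.33%, against 5.71%). None passed the adjusted test. P2ry12, the purine receptor that guides microglial processes, had 3517, 2454, 5077 and 3337 CPM in GW-CBD-LPS libraries and 4907, 5594 and 5518 CPM in GW-CBD-PBS libraries. P2ry12 had 1787, 1397 and 1682 CPM in GW-LPS libraries, against 5305, 4010, 5196 and 5958 CPM in GW-PBS libraries. Every GW-LPS library was below every GW-CBD-LPS library, and GW-CBD-LPS replicate 3 was within the range of the PBS libraries. The LPS value of P2ry12 was -0.57 ± 0.20 with CBD (adjusted p 0.275), it fell by 1.66 ± 0.21 without CBD (adjusted p 9.39e-05), and the difference was 1.09 ± 0.29 (adjusted p 0.118). Between LPS libraries it was 1.15 ± 0.21 higher with CBD (adjusted p 0.00519).

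Gpr34, a receptor for lysophosphatidylserine, had 1497, 1046, 1938 and 1460 CPM in GW-CBD-LPS libraries and 1854, 2340 and 2186 CPM in GW-CBD-PBS libraries. It had 693, 423 and 580 CPM in GW-LPS libraries, against 2494, 1703, 2165 and 2353 CPM in GW-PBS libraries. The GW-LPS libraries were again the lowest, and its difference was 1.43 ± 0.32 (adjusted p 0.0715). Siglech, a sialic acid-binding lectin of microglia, had a difference of 0.99 ± 0.22 (adjusted p 0.0715). Tmem119 and Cx3cr1 (the receptor for the neuronal chemokine fractalkine) had small differences, 0.28 ± 0.17 and 0.19 ± 0.22. The 95% intervals ran from -0.07 to 0.63 for Tmem119 and from -0.26 to 0.64 for Cx3cr1. The estimate for P2ry12, 1.09, lay outside them, but its own interval, from 0.48 to 1.70, overlapped both. The genes were not tested against each other.

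Genes of disease-associated microglia, a state defined by lipid handling and phagocytosis around plaques, had a median difference of 0.71 over 30 genes, 26 of them positive. At an unadjusted p under 0.05, 12 were higher (40%, against 9.64% of all genes) and 1 was lower (3.33%, against 5.71%). None passed the adjusted test. Without CBD, LPS lowered 12 of these genes (5.07% of all genes) and raised 2 (4.45% of all genes). With CBD none was called, against 0.417% of all genes. The median CBD value of the list was -0.53 without LPS, with 28 of 30 genes negative. After LPS it was 0.16, with 18 positive and 12 negative. At an unadjusted p under 0.05, 15 were lower with CBD without LPS, as were 1172 of all 16554 genes. After LPS 5 were higher and 3 lower with CBD. Trem2, the lipid-sensing receptor of this state, had 1563, 1155, 2184 and 2008 CPM in GW-CBD-LPS and 1947, 2274 and 1922 CPM in GW-CBD-PBS libraries. Trem2 had 1173, 868 and 1068 CPM in GW-LPS libraries, against 3623, 1993, 2377 and 2340 CPM in GW-PBS libraries. GW-CBD-LPS replicate 2 overlapped the GW-LPS libraries, and GW-PBS replicate 1 was the highest library. The difference of Trem2 was 1.07 ± 0.28 (adjusted p 0.113). It was 1.23 ± 0.36 for Cd9 (a tetraspanin), 1.67 ± 0.51 for Lpl (lipoprotein lipase) and 0.34 ± 0.40 for Apoe (the lipid carrier apolipoprotein E). The median of the list was 0.47 without GW-PBS replicate 3, where the CPM of Lpl was 487 against 154 to 201 in the other GW-PBS libraries.

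Receptors of phagocytosis and complement held several genes that LPS raised without CBD. Msr1, a scavenger receptor, had 27.5, 41.4, 15.6 and 30.2 CPM in GW-CBD-LPS libraries and 14.6, 25.5 and 10.9 CPM in GW-CBD-PBS libraries. Msr1 had 84.6, 220 and 112 CPM in GW-LPS libraries, against 12.8, 19.9, 22.3 and 13.3 CPM in GW-PBS libraries. The GW-LPS libraries lay above all others, and the CBD groups overlapped. LPS raised Msr1 by 3.02 ± 0.40 without CBD, its value with CBD was 0.75 ± 0.39, and the difference was -2.27 ± 0.54 (adjusted p 0.0824). Cd244a, a receptor related to Slamf8, was raised in both responses, by 2.67 ± 0.42 with CBD (adjusted p 0.0129) and by 4.70 ± 0.42 without CBD (adjusted p 5.74e-06). Its libraries had 28.5, 66.7, 10.8 and 37.0 CPM in GW-CBD-LPS and 5.68, 6.17 and 5.03 CPM in GW-CBD-PBS, and 148, 196 and 181 CPM in GW-LPS, against 5.76, 9.37, 7.89 and 3.86 CPM in GW-PBS. Both LPS groups lay above both PBS groups without overlap, and the difference was -2.04 ± 0.54 (adjusted p 0.116).

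Over the 30 genes of phagocytosis and Fc receptors the median difference was -0.13, with 12 positive and 18 negative values. It moved between -0.33 without GW-PBS replicate 2 and -0.07 without GW-LPS replicate 3, by over 1.5 times for 10 of the 14 libraries, and the positive values numbered 9 to 15. LPS raised 2 and lowered none with CBD, and raised 8 and lowered 3 without it. Of all genes, 0.393% rose with CBD, and without it 4.45% rose and 5.07% fell. The 17 complement genes had a median of 0.20, which was -0.09 without GW-CBD-PBS replicate 2 and 0.40 without GW-CBD-PBS replicate 3, and moved by over 1.5 times for 10 of the 14 libraries. Among them C5ar2, the second C5a receptor, had -1.16 ± 0.30 (adjusted p 0.11).

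Cytokines and regulators of NF-kB, the transcription factor downstream of Toll-like receptors, had a median difference of -0.10 over 38 genes. Positive values numbered 16 (42.1%, against 53.1% of all genes) and negative ones 22. At an unadjusted p under 0.05, 2 were higher (5.26%, against 9.64% of all genes) and 6 were lower (15.8%, against 5.71%). The median moved between -0.31 and 0.08 as single libraries were left out, by over 1.5 times for 11 of the 14, and turned positive without GW-CBD-PBS replicate 3. Il1b had 70.4, 176, 68.3 and 112 CPM in GW-CBD-LPS libraries and 63.1, 158 and 39.5 CPM in GW-CBD-PBS libraries. It had 157, 218 and 144 CPM in GW-LPS libraries, against 114, 171, 107 and 50.01 CPM in GW-PBS libraries. All 4 groups overlapped, and the difference of -0.35 ± 0.85 had a 95% interval from -2.13 to 1.42. Tnf had a difference of 0.24 ± 0.59 with an interval from -1.0 to 1.48. At 24 hours neither cytokine was called for LPS in these mice, with adjusted p-values of 0.912 with CBD and 0.549 without it for Il1b, and 0.682 and 0.681 for Tnf. Nlrp3, the sensor of an inflammasome, had a difference of -1.07 ± 0.30 (adjusted p 0.132).

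Over 50 interferon-induced genes the median LPS value was 0.75 with CBD and 0.12 without it, and the difference was positive for 41 genes with a median of 0.62. At an unadjusted p under 0.05, 15 were higher (30%, against 9.64% of all genes) and 1 was lower (2%, against 5.71%). None passed the adjusted test. Without GW-PBS replicate 2 the median was 0.40, and the 15 ran from 10 to 21 over single libraries left out. LPS raised 2 of them with CBD, Ifi27l2a and Ifi204, and 7 without it. Of all genes it raised 0.393% with CBD and 4.45% without CBD. Ifit3, an interferon-induced antiviral protein, had 64.6, 71.9, 42.9 and 56.1 CPM in GW-CBD-LPS libraries and 35.0, 36.0 and 25.1 CPM in GW-CBD-PBS libraries. Ifit3 had 39.7, 19.99 and 23.5 CPM in GW-LPS libraries, against 31.4, 53.7, 43.9 and 36.2 CPM in GW-PBS libraries. With CBD the LPS libraries lay above the PBS libraries, and without CBD they overlapped. Its difference was 1.45 ± 0.46 (adjusted p 0.189). Ifi204, a DNA sensor, rose in both, by 1.14 ± 0.24 with CBD and by 1.05 ± 0.23 without it, and its difference was 0.10 ± 0.33. Gbp7, a guanylate-binding protein, went the other way with -1.08 ± 0.31. GW-CBD-PBS libraries had the lowest summed CPM of this list, 2863 to 3240, against 3738 to 5447 in GW-PBS libraries.

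The promoter of Ifit3 is shown because interferon signalling acts through a known DNA element, the ISRE, searched as GAAA, any 2 bases and GAAA again on either strand. From RefSeq (GRCm38.p6), 250 bases before to 50 after the start, chr19:34583279-34583578 on the + strand, it held that element at the 2 places in capitals (written on the opposite strand).
Ifit3: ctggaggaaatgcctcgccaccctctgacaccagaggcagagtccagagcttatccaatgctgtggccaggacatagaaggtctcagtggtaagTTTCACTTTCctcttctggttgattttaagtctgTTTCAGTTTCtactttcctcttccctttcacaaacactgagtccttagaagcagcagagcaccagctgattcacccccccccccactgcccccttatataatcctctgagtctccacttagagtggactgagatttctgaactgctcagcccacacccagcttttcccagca
Of 38 listed interferon genes with a promoter in that table, 26 (68.4%) held these letters, against 1079 of 27025 genes (4.0%). The promoter window of Ifi44, another listed interferon gene, held none. A match is a description of the letters and not evidence of binding.

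All 16 genes of class II presentation had a positive difference (53.1% of all genes did), with a median of 0.68. At an unadjusted p under 0.05, 6 were higher (37.5%, against 9.64% of all genes). That count was 2 without GW-CBD-PBS replicate 2 or 4 and 3 without GW-PBS replicate 1. The median LPS value was -0.31 with CBD and -0.96 without it. LPS raised 1 and lowered none with CBD, and raised 1 and lowered 8 without it. Of all genes, 0.393% rose with CBD, and without it 4.45% rose and 5.07% fell. H2-Aa, a class II chain, had 93.4, 43.4, 138 and 113 CPM in GW-CBD-LPS libraries and 164, 452 and 153 CPM in GW-CBD-PBS libraries. It had 28.6, 62.4 and 44.0 CPM in GW-LPS libraries, against 454, 342, 355 and 166 CPM in GW-PBS libraries. In both arms the LPS libraries were below the PBS libraries, and the difference was 1.46 ± 0.60 (adjusted p 0.268). Cd74, the invariant chain, had a difference of 0.95 ± 0.53 (adjusted p 0.397). Of 20 class I genes, 17 had a positive difference (median 0.63). At an unadjusted p under 0.05, 12 were higher (60%, against 9.64% of all genes), and 6 without GW-LPS replicate 3. Among the 12 were H2-K1 with 1.03 ± 0.32 and Psmb9, a subunit of the immunoproteasome, with 1.02 ± 0.27. The median CBD value of class I genes was -0.47 without LPS, with 9 of 20 lower at that p. After LPS it was 0.21, with 2 of 20 higher at that p. Of all 16554 genes 1172 were lower without LPS and 1307 higher after LPS. Class I and class II genes have near-identical copies, so reads of single members are uncertain. Of 23 chemokines, 17 had a positive difference (median 0.42), and Cxcl10, an interferon-induced chemokine, had 1.90 ± 0.78 (adjusted p 0.266). The chemokine median was 0.24 without GW-PBS replicate 2, 0.27 without GW-PBS replicate 1 and 0.70 without GW-CBD-PBS replicate 3, and 13 to 20 values were positive over single libraries left out. The median CBD value of chemokines was -0.54 without LPS, with 4 positive and 18 negative. After LPS it was -0.15, with 9 positive and 14 negative.

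Genes of DNA replication were the most frequent listed genes among those that LPS raised with CBD. Of 46 genes of the S phase, LPS raised 18 with CBD and 5 without CBD, and lowered none. Of all genes it raised 0.393% with CBD and 4.45% without CBD. The median LPS value was 1.97 with CBD and 0.62 without it. All 46 had a positive difference, with a median of 1.15 (0.05 over all genes). At an unadjusted p under 0.05, 25 were higher (54.3%, against 9.64% of all genes). None passed the adjusted test. The summed CPM of the list was 2549, 2335, 1013 and 2339 in GW-CBD-LPS libraries and 699.5, 781 and 712 in GW-CBD-PBS libraries. It was 1591, 750.4 and 1193 in GW-LPS libraries, against 764, 839, 787 and 697 in GW-PBS libraries. In all, 3 GW-CBD-LPS libraries were above all others, GW-CBD-LPS replicate 3 lay among the GW-LPS libraries, and GW-LPS replicate 3 lay among the PBS libraries. The median difference was 1.39 without GW-CBD-LPS replicate 3 and 0.93 without GW-LPS replicate 3, and 16 genes were at that p without GW-LPS replicate 3 or GW-CBD-LPS replicate 1.

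Tk1, thymidine kinase, had 42.9, 15.4, 13.5 and 42.5 CPM in GW-CBD-LPS libraries and 4.85, 3.67 and 4.08 CPM in GW-CBD-PBS libraries. Tk1 had 5.34, 1.38 and 4.02 CPM in GW-LPS libraries, against 9.36, 9.46, 6.52 and 4.34 CPM in GW-PBS libraries. All GW-CBD-LPS libraries were above all others. LPS raised Tk1 by 2.76 ± 0.59 with CBD (adjusted p 0.0456), its value without CBD was -1.05 ± 0.55 (adjusted p 0.253), and the difference was 3.81 ± 0.80 (adjusted p 0.0654). Rfc3, a subunit of the clamp loader, had 31.6, 25.9, 24.7 and 35.8 CPM in GW-CBD-LPS libraries and 14.8, 12.5 and 13.9 CPM in GW-CBD-PBS libraries. Rfc3 had 20.7, 10.9 and 16.5 CPM in GW-LPS libraries, against 22.6, 16.3, 18.2 and 16.7 CPM in GW-PBS libraries. The GW-CBD-LPS libraries were again the highest, and the difference was 1.30 ± 0.31 (adjusted p 0.0757). Mcm7, a subunit of the replicative helicase, had 126, 123, 38.7 and 122 CPM in GW-CBD-LPS libraries and 25.9, 25.7 and 24.0 CPM in GW-CBD-PBS libraries. Mcm7 had 73.9, 30.4 and 50.9 CPM in GW-LPS libraries, against 20.9, 29.7, 26.0 and 26.7 CPM in GW-PBS libraries. LPS raised Mcm7 by 2.02 ± 0.36 with CBD (adjusted p 0.0201), its value without CBD was 1.00 ± 0.33 (adjusted p 0.0605), and the difference was 1.02 ± 0.48 (adjusted p 0.315).

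The promoters of Mcm7 and Rfc3 are shown because E2F factors switch on replication genes through such letters. E2F-type letters (TTTCCCGC, TTTGGCGC, TTTGCCGC or TTTCGCGC, either strand) are in capitals. Both come from RefSeq (GRCm38.p6), with 250 bases before to 50 after the start, Mcm7 at chr5:138171834-138172133 and Rfc3 at chr5:151651159-151651458, both on the - strand.
Mcm7: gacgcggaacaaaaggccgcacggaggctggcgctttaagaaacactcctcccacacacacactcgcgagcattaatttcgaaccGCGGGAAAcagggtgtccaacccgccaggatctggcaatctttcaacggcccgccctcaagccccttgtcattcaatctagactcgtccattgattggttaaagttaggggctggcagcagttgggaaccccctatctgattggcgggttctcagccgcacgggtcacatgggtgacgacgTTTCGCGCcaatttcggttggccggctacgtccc
Rfc3: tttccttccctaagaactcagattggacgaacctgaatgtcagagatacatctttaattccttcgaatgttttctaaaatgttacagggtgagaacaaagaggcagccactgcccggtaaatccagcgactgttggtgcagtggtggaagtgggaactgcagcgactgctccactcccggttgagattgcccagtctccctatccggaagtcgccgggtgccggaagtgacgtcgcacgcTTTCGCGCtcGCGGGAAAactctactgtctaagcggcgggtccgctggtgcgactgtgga
These letters were in the promoters of 14 of 38 listed S-phase genes with an entry (36.8%), 2 of 30 mitosis genes (6.7%) and 704 of 27025 genes (2.6%). The promoter windows of Tk1, Pcna and Ccne1 held none of them, nor did a second Mcm7 window at chr5:138171217-138171516. Here too a match describes the letters and is not evidence of binding.

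Mitosis genes had the largest median difference of the 23 pathway lists, 1.82 over 36 genes, 35 of them positive. At an unadjusted p under 0.05, 17 were higher (47.2%, against 9.64% of all genes). The median LPS value was 1.26 with CBD and -0.74 without it. None was called with CBD, where 0.417% of all genes were. Without CBD 1 rose and 2 fell, where 4.45% of all genes rose and 5.07% fell. The summed CPM of the list was 393, 203, 183 and 248 in GW-CBD-LPS libraries and 116, 127 and 125 in GW-CBD-PBS libraries, and it was 123, 118 and 128 in GW-LPS libraries, against 136, 172, 165 and 118 in GW-PBS libraries. All GW-CBD-LPS libraries were above all others, and GW-CBD-LPS replicate 1 was the highest; without it the median difference was 1.29. Without GW-LPS replicate 3, 11 genes were at that p. Cdk1, the kinase that starts mitosis, had a difference of 2.79 ± 0.72 (adjusted p 0.109), and Ncaph, a condensin subunit, 1.13 ± 0.26 (adjusted p 0.0715).

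**Figure D4:**
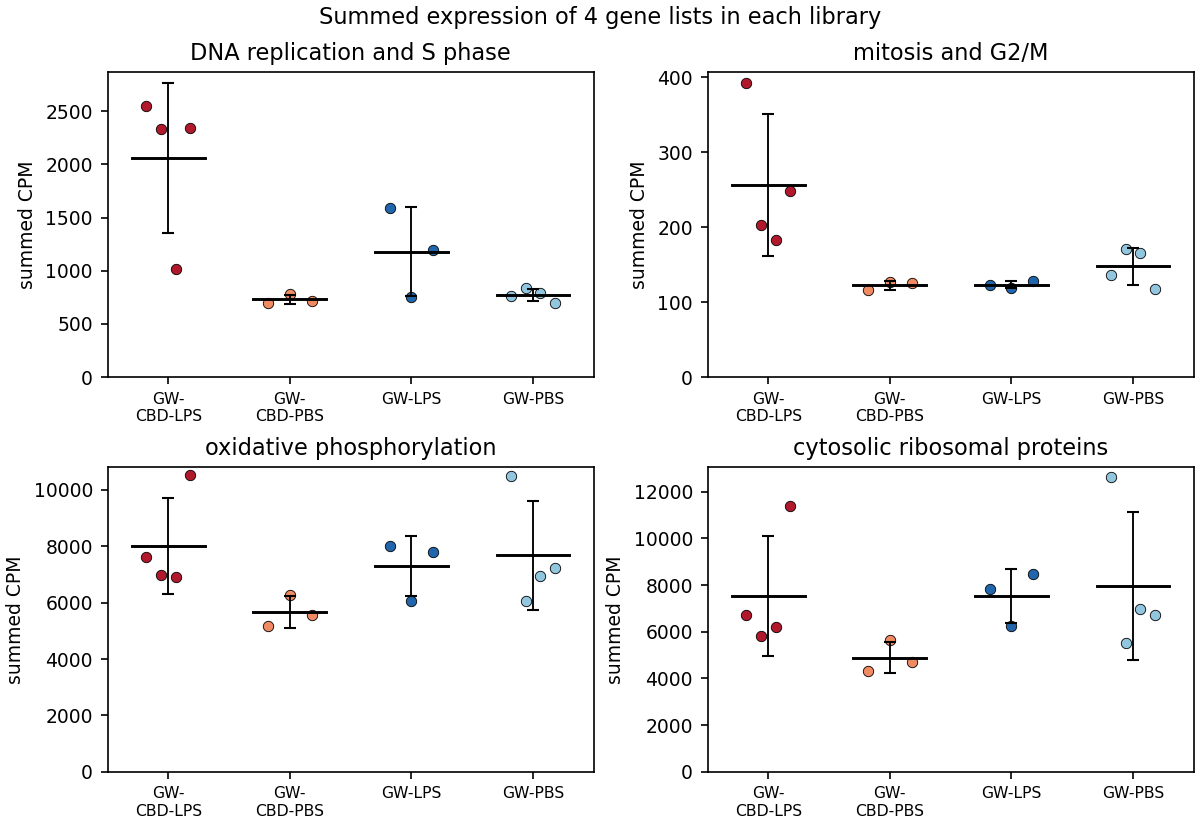
Summed CPM (y axis) of genes of DNA replication, mitosis, oxidative phosphorylation and cytosolic ribosomal proteins in each library of the 4 groups, with points for libraries, a line at the mean and bars of 1 SD. GW-CBD-LPS libraries are highest for mitosis, 183 to 393 CPM, while for the ribosomal list GW-CBD-LPS replicate 4 (11380 CPM) and GW-PBS replicate 1 (12640 CPM) stand apart.

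Genes of translation and respiration had a positive difference almost throughout, with low values in CBD mice without LPS. Of 80 cytosolic ribosomal protein genes, 78 had a positive difference (median 0.83), and of 70 genes of oxidative phosphorylation, 69 did (median 0.89). At an unadjusted p under 0.05, 31 of the 80 (38.8%) and 47 of the 70 (67.1%) were higher, against 9.64% of all genes. None was called for the difference, for LPS or for CBD. The median LPS value of the ribosomal list was 0.68 with CBD and -0.13 without it, and the median CBD value without LPS was -0.80. For oxidative phosphorylation these values were 0.62, -0.18 and -0.73. Ribosomal genes summed to 6717, 5813, 6218 and 11380 CPM in GW-CBD-LPS libraries and 4328, 5626 and 4721 CPM in GW-CBD-PBS libraries. They summed to 7847, 6261 and 8491 CPM in GW-LPS libraries, against 12640, 5524, 6981 and 6717 CPM in GW-PBS libraries. The GW-CBD-PBS libraries were low, and 1 library each of GW-CBD-LPS and GW-PBS was high. Without GW-PBS replicate 1 the ribosomal median was 0.48 with 5 genes at an unadjusted p under 0.05, and without GW-CBD-LPS replicate 4 it was 0.54 with 6. That count was 9 without GW-LPS replicate 3, 14 and 16 without GW-CBD-PBS replicates 2 and 4, and 49 and 53 without replicate 2 of GW-CBD-LPS and of GW-PBS. For oxidative phosphorylation the median was 0.59 without GW-PBS replicate 1. Its count at that p was 19 without GW-PBS replicate 1 or GW-LPS replicate 3, 20 without GW-CBD-LPS replicate 4 and 25 without GW-CBD-PBS replicate 2. Weighting the libraries by quality in limma gave medians of 0.33 for the ribosomal list and 0.49 for oxidative phosphorylation.

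**Figure D5:**
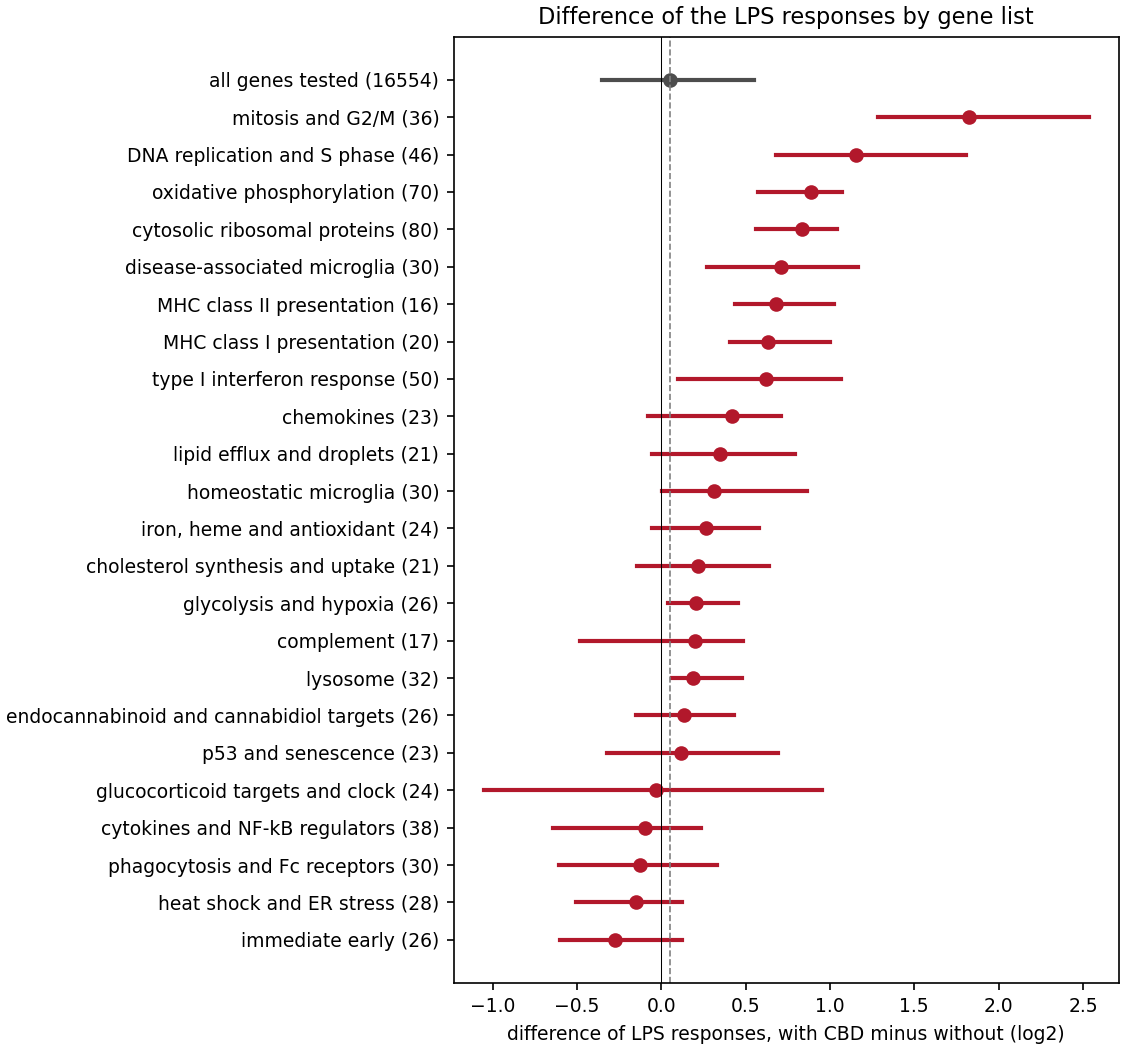
Difference of the LPS responses (with CBD minus without, log2, x axis) for all genes tested and for 23 gene lists, with the number of genes in brackets. Points are medians and bars run from the 25th to the 75th percentile, and the dashed line is the median of all genes. Mitosis (1.82) and DNA replication (1.15) lie highest and immediate early genes (-0.27) lowest.

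Lysosomal genes had a small positive difference, with 27 of 32 positive and a median of 0.19 (0.28 without GW-CBD-PBS replicate 3). Hexa, a lysosomal hexosaminidase subunit, had 0.83 ± 0.24. Medians of at most 0.35 were found for lists of glycolysis and hypoxia (26 genes, median 0.21), cholesterol synthesis (21 genes, 0.22), lipid efflux (21 genes, 0.35), iron and antioxidant genes (24 genes, 0.26), and p53 and senescence (23 genes, 0.12). Over single libraries left out these medians ran from 0.10 to 0.34 for glycolysis, 0.14 to 0.29 for cholesterol synthesis, 0.28 to 0.52 for lipid efflux, 0.17 to 0.47 for iron and antioxidant genes, and 0.02 to 0.47 for p53 and senescence. Sod1, the cytosolic superoxide dismutase, had 1.36 ± 0.37 (adjusted p 0.128). Cdkn1a, the p21 cell cycle inhibitor, had 0.05 ± 0.36, with an interval from -0.70 to 0.80. Immediate early genes (26 genes, median -0.27) and heat shock and ER stress genes (28 genes, -0.15) had more negative than positive values, 18 and 19 of them. The median of immediate early genes was 0.05 without GW-CBD-PBS replicate 3 and -0.52 without GW-CBD-PBS replicate 4, and that of heat shock genes ran from -0.34 to -0.025, without GW-LPS replicates 3 and 2 in turn.

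The list of glucocorticoid targets and clock genes had a median difference of -0.03 over 24 genes, with single clock genes far from it. The median changed sign as single libraries were left out, running from -0.27 without GW-CBD-LPS replicate 3 to 0.27 without GW-LPS replicate 3. Nr1d1, a repressor of the clock, had 36.5, 9.67, 51.3 and 21.05 CPM in GW-CBD-LPS libraries and 10.7, 16.4 and 8.16 CPM in GW-CBD-PBS libraries. Nr1d1 had 3.22, 10.9 and 2.58 CPM in GW-LPS libraries, against 11.6, 17.5, 13.04 and 15.7 CPM in GW-PBS libraries. GW-CBD-LPS libraries were spread widely and reached into the other groups, and the difference was 2.72 ± 0.65 (adjusted p 0.0834). Dbp, a clock-driven transcription factor, had a difference of 3.07 ± 0.76 (adjusted p 0.0913), with 17.9, 3.35, 47.2 and 12.7 CPM in GW-CBD-LPS and 11.01, 12.2 and 8.16 CPM in GW-CBD-PBS libraries, and 2.17, 5.57 and 1.97 CPM in GW-LPS, against 16.5, 15.2, 10.7 and 13.6 CPM in GW-PBS libraries. In both genes GW-CBD-LPS replicate 3 was highest and GW-LPS replicates 2 and 4 were lowest.

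Genes of the endocannabinoid system and proposed targets of CBD had no common direction. Of 26 genes, 16 had a positive and 10 a negative difference, with a median of 0.13 (0.02 without GW-PBS replicate 3 to 0.30 without GW-CBD-PBS replicate 3), and none was called with CBD after LPS over PBS. Of all genes 0.417% were called there. Without CBD, LPS raised Alox5 and Trpv4 and lowered Mgll and Abhd6, 2 in each direction, where 4.45% of all genes rose and 5.07% fell. Cnr2, the cannabinoid receptor of immune cells, had 35.7, 40.7, 36.9 and 31.9 CPM in GW-CBD-LPS libraries and 43.4, 37.9 and 46.55 CPM in GW-CBD-PBS libraries. It had 36.8, 114 and 42.5 CPM in GW-LPS libraries, against 27.2, 46.5, 42.1 and 35.6 CPM in GW-PBS libraries. GW-LPS replicate 3 alone stood apart, and the difference was -1.0 ± 0.39 (adjusted p 0.251) with it and -0.32 without it. Alox5 had 124, 179, 107 and 121 CPM in GW-CBD-LPS and 111, 118 and 116 CPM in GW-CBD-PBS libraries, and 253, 319 and 344 CPM in GW-LPS, against 79.7, 106, 92.2 and 110 CPM in GW-PBS libraries. The GW-LPS libraries were above all others for Alox5, and the difference did not pass the test (adjusted p 0.0561). Mgll, the lipase that breaks down the endocannabinoid 2-AG, had a difference of 1.08 ± 0.33 (adjusted p 0.175).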

How the data were processed

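Values were whole-number counts of reads per gene, which per the labels the authors made by aligning reads of stranded poly(A) libraries (150 bp pairs) to the mouse genome. Per the submitters' processing notes the build is GRCm38 (mm10). Aligner, counter and strand setting are not given in the sources used. Values of antisense, overlapping and near-identical genes are therefore uncertain. The deposited table held 54532 genes in 22 libraries, 27 symbols turned into dates were restored from identifiers, and coordinates came from GENCODE M21.

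All 22 libraries entered 1 edgeR 4.0.16 fit in R 4.3.3 (quasi-likelihood, TMM factors, a mean for each of 6 groups, filterByExpr with the groups), which pools the spread over groups (common coefficient of variation 0.352). The filter kept 16554 genes with at least 99.93% of counts. P-values were two-sided and adjusted over all genes tested by Benjamini-Hochberg. CPM of genes and summed CPM of lists used TMM factors, and log2 CPM for the score also a prior count of 2. DESeq2 1.42.0 and limma 3.58.1 (voom with quality weights) were alternatives, with RLE factors, no filter, the 14 libraries alone, a block for the replicate number, and fits with libraries left out. The script was tested on simulated data. Figures used matplotlib 3.10.9. Pairs of libraries within a group differed by a chi-square of 17.3 to 260 per degree of freedom, so none repeated another.

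Genes named were the called genes, filled up to 10 in each direction by unadjusted p (a mean of at least 5 CPM in a group, no predicted genes or pseudogenes), 19 index genes, and the 2 members of each pathway list with the smallest p. Other genes named in counts of calls were chosen after their values were seen, and some genes of the rule are not printed. Lists, rules and the comparison itself were chosen with earlier results of these data known.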

Additional observations from a re-analysis of the deposited data

Results flagged for a closer look

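Among 124 groups of 4 libraries, 5 held a library far from its group by Dixon's test, and chance flags about 1 in 20 groups. In GW-CBD-LPS replicate 3 Mcm7 had 38.7 CPM, against 122 to 126 in the other GW-CBD-LPS libraries, and the S-phase list summed to 1013 CPM, against 2335 to 2549. In GW-CBD-LPS replicate 4 the ribosomal protein list summed to 11380 CPM, against 5813 to 6717 in the others. In GW-PBS replicate 3 Tmem119 had 5884 CPM, against 6595 to 6664 in the other GW-PBS libraries, and in GW-PBS replicate 4 Cx3cr1 had 3785 CPM, against 3814 to 3820, a gap of small size. Groups of 3 libraries were not tested this way.

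By the test of the difference itself, the LPS response differed between CBD and vehicle mice in Adamtsl4 (-4.65), Arl5c (1.96) and Slamf8 (1.61), all log2 values with an edgeR adjusted p of 0.0386. Each of the 3 calls ended without some single libraries, as given beside their values.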

How the results depend on the processing

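Genes called for the difference of the LPS responses numbered 3 with edgeR, 19 with no filter, 381 with DESeq2, 2287 with limma and quality weights, 0 in the 14 libraries alone, 5 when the 3 libraries with high neutrophil markers were left out, and 0 to 211 without single libraries. Of the 5 called without the neutrophil libraries, 2 were among the 3 of the main fit. Genes at an unadjusted p under 0.05 numbered 2540, 4969 in limma, and 1789 to 3528 without single libraries. For LPS with CBD the 69 calls became 344 with DESeq2, 3779 in limma, 45 in the 14 libraries alone, 155 without the neutrophil libraries, and 0 to 260 without single libraries. For LPS without CBD 1577 became 3809 in limma and 733 to 2286 without single libraries. For CBD after LPS 382 became 900 with DESeq2, 3512 in limma, 672 without the neutrophil libraries, and 97 to 532 without single libraries. CBD without LPS gave 0 genes in every setting but limma (217). The cause of these shifts was not tested.

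With the replicate number as a block the difference had 0 calls and LPS with CBD 0. Correlations of deviations between same-numbered libraries ran from -0.13 to 0.31 over 19 pairs, 5 of them over 0.1. Between libraries of different number they ran from -0.26 to 0.27. Whether same-numbered libraries were processed together was not tested.

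Of 1596 pairs of a named gene and a setting, 10 changed sign, all of genes not called. Il1b was -0.72 to 0.40 over single libraries left out (positive without GW-CBD-PBS replicate 3), and Tnf -0.088 to 0.65 (negative without GW-CBD-LPS replicate 2). Ifi204 was -0.10 to 0.27 (negative without GW-CBD-LPS replicate 2 or GW-PBS replicate 3). Cdkn1a was -0.11 to 0.34 (negative without GW-CBD-PBS replicate 2 or 4 or GW-PBS replicate 1 or 3), -0.13 with the block, and -0.043 without the neutrophil libraries. In 37 pairs a call was lost and in 183 one was gained. With 3 or 4 libraries a group, a typical gene needed a difference beyond 0.83 (log2) for its 95% interval to clear 0 before adjustment.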
